A study of Mus musculus with 12 samples.

Results

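Hyodeoxycholic acid (HDCA) was compared with no HDCA in the livers of mice whose bile duct had been ligated (BDL). The comparison uses 6 of the 12 libraries of the series: 3 titled BDL, from mice ligated for 7 days, and 3 titled BDL_H, taken as the mice that received HDCA at 100 mg/kg for 4 days, beginning 3 days after the operation. They are called BDL and BDL_HDCA, each with its replicate number. The other 6 libraries, titled MDR and MDR_H, are taken from the series description as Abcb4-/- mice of 60 days of age without HDCA or with 100 mg/kg for 21 days, and enter only the estimate of spread and the comparison between models. The labels give no strain or sex, no vehicle, no age for the ligated mice and no statement that replicates were separate animals. All 6 livers were ligated and no unoperated liver was analysed here, so a value is set against untreated ligation and not against a healthy liver. The p-values set a difference between groups against the spread between libraries, pooled over the 4 groups. As separate animals are not stated, that spread may be technical. Expression is given as FPKM, fragments scaled to the length of the gene model and to library depth, and 10805 of 16970 genes in the table were tested, those that reached an FPKM of 1 in 3 or more of the 12 libraries.

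Ligation of the common bile duct blocks the flow of bile into the gut. Bile acids then build up in the liver, bile ductules multiply, stellate cells turn into matrix-producing myofibroblasts and the sinusoidal endothelium is altered. HDCA is a hydrophilic secondary bile acid that gut bacteria form. Bile acids act in the liver partly through the nuclear receptor FXR, which lowers bile acid synthesis and raises export.

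No gene passed the test for a difference between BDL_HDCA and BDL after adjustment for the number of genes. limma called 0 of 10805 genes at an adjusted p under 0.05, a background of 0%, and the smallest adjusted p was 0.9997. Without adjustment 243 genes had p under 0.05 (2.25% of those tested), of which 187 were higher with HDCA (1.73%) and 56 lower (0.518%). The limma-voom fit on the reads recovered from the FPKM values also called 0 genes, with 251 at an unadjusted p under 0.05. An exact two-sided permutation test of 3 libraries against 3 cannot give a p under 0.10 for a single gene. Every log2 change below is therefore a measured difference of means on the log2(FPKM + 1) scale, BDL_HDCA minus BDL, with its limma standard error, and none passed the test. Of the genes at an unadjusted p under 0.05, 77.0% were higher with HDCA in these values, 57.3% after quantile normalization, 61.8% after median-of-ratios scaling and 44.5% without BDL replicate 1.

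BDL replicate 1 and, in the treated group, BDL_HDCA replicate 2 each stood away from the other 4 libraries, and they shared much of what set them off but were not alike. On log2(FPKM + 1) the other 4 libraries correlated with one another at 0.9914 to 0.9943 across genes, whatever their group, while pairs that held either of these libraries correlated at 0.9565 to 0.9733. BDL replicate 1 correlated with BDL_HDCA replicate 2 at 0.9726, above its 0.9610 and 0.9565 with its own group, while BDL_HDCA replicate 2 correlated as closely with BDL replicate 2, at 0.9733. In a principal component analysis the first component (68.6% of variance) put both on the same side, at 45.59 and 27.44 against -20.81 to -13.47, and the second (17.6%) put them at opposite ends, at 19.05 and -26.37. Of 3765 genes whose mean reached 10 FPKM, both libraries lay below the other 4 for 1766 (46.9%) and above them for 421 (11.2%). FPKM was not rescaled for these counts. The median-of-ratios factors were 0.736 for BDL replicate 1 and 0.765 for BDL_HDCA replicate 2, against 0.934 to 1.005 in the other 4. The typical gene was therefore lower in these 2 libraries, and the counts include that shift. Mat1a, which makes S-adenosylmethionine in mature hepatocytes, was at 2700 FPKM in BDL replicate 1 and 2806 in BDL_HDCA replicate 2 and at 432 to 625 in the other 4. Ccnd1, the cyclin that takes cells out of rest, was at 3.74 and 5.83 FPKM in these libraries and at 29.3 to 38.3 in the others. The sulfotransferase Sult1e1 was at 51.0 and 15.6 FPKM against 0.0392 to 0.248, the fatty acid hydroxylase Cyp4a14 at 373 and 337 against 31.9 to 58.0, and the water channel Aqp8 at 19.7 and 15.0 against 110 to 176. Each group holds 1 of these libraries, and the main results below are also given without them, with 2 libraries left a group. They reached 1 FPKM for 9066 and 9341 genes, against 9859 to 10207 in the others. Read totals of the 6 libraries ran from 38338204 to 40427855; what sets the pair apart was not tested.

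**Figure D1:**
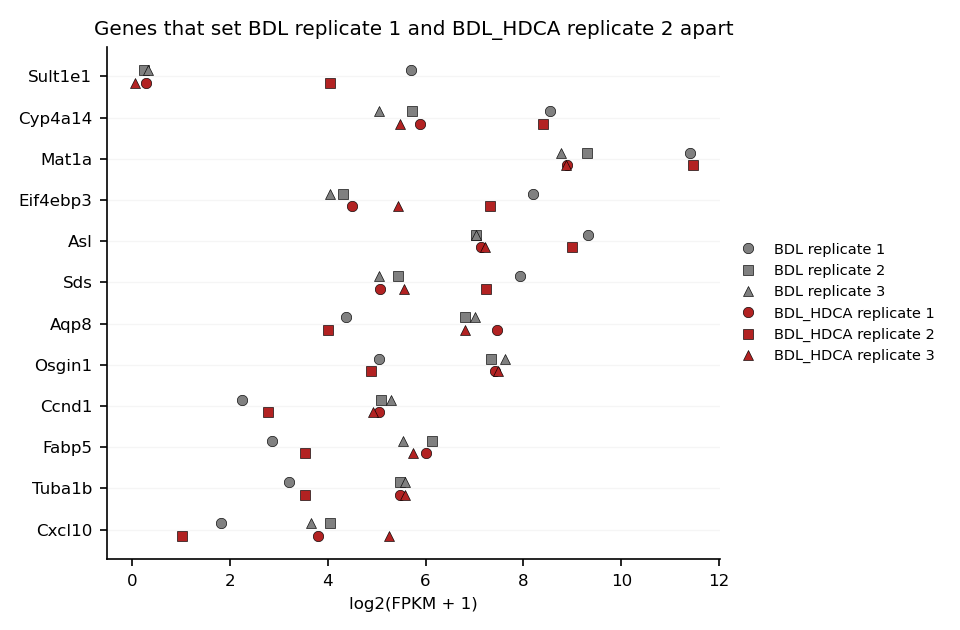
Each point is log2(FPKM + 1) in 1 library (x axis) for the 12 genes that most separate BDL replicate 1 and BDL_HDCA replicate 2 from the other 4 libraries; grey is BDL, red BDL_HDCA, and the symbol gives the replicate. The circle in grey and the square in red lie together, away from the other 4 points, above them for 6 genes and below them for 6.

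The labelled tissue was checked against markers. The 6 hepatocyte markers were all measured, with Alb at 29880 to 40080 FPKM, and 0 of 6 muscle and fat markers passed the filter, with Ckm, Myh4 and Acta1 at 0 in all 6 libraries. Of 9 pancreas and gut markers, 4 were in the table and 2 passed the filter, Cela1 and Fabp2. That list summed to 51.1, 33.2 and 31.5 FPKM in BDL and to 31.9, 28.2 and 25.55 in BDL_HDCA. In bulk liver, fewer cells of a type and less RNA per cell cannot be told apart, which holds for every marker list below.

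The gene with the smallest p was Gpihbp1 (GRCm38 chromosome 15, 75596628 to 75599481, plus strand), a protein of capillary endothelium that holds lipoprotein lipase on the vessel wall. It was at 7.39, 16.7 and 19.3 FPKM in BDL replicates 1 to 3 and at 32.2, 32.5 and 32.1 in BDL_HDCA. The treated libraries (32.3 ± 0.166 FPKM, SD, n = 3) lay close together and above all 3 untreated ones (14.5 ± 6.26). The log2 change was 1.20 ± 0.25 (SE; limma adjusted p = 0.9997), and 0.81 without BDL replicate 1 and BDL_HDCA replicate 2. With weights that count libraries far from their group less, limma called it (log2 change 0.90, adjusted p = 0.0084). Those weights were 0.134, 4.88 and 1.11 for BDL replicates 1 to 3 and 3.505, 0.171 and 1.28 for BDL_HDCA. The call thus rests mostly on BDL replicate 2 and BDL_HDCA replicate 1. No other gene was called under any setting.

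Across all genes tested, 543 did not overlap between groups (5.03%): 371 (3.43%) were higher in all 3 BDL_HDCA libraries than in any BDL library and 172 (1.59%) lower in all 3. The 12 with the smallest p in each direction, at a mean of at least 2 FPKM in the higher group, are described here by their values, which also chose them. On the higher side, Ccl21a, a chemokine of lymphatic endothelium that draws dendritic and T cells, was at 0.441, 0.633 and 1.17 FPKM in BDL and 2.02, 2.80 and 4.52 in BDL_HDCA (log2 change 1.21 ± 0.28). Its near-identical copies may share its reads, so the value is uncertain as to the copy. Adamts2, which trims procollagens so that fibrils can form, was at 0.741, 1.38 and 1.36 FPKM in BDL and 2.50, 2.67 and 2.67 in BDL_HDCA (0.75 ± 0.18). Colec10, a collectin of stellate cells, was at 0.777, 1.06 and 1.87 FPKM and then at 2.42, 2.86 and 2.90 (0.76 ± 0.19). In all 3 genes BDL replicate 1 was the lowest library, and the treated libraries lay closer together than the untreated ones for Adamts2 and Colec10 but not for Ccl21a.

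The other 8 on the higher side were Inhbb, the beta B chain of activin, Vipr1, a receptor for vasoactive intestinal peptide, the adhesion receptor Adgrf5, Hdc, which makes histamine, the endothelial membrane protein Tmem204, Ms4a4d, the P450 Cyp4b1 and Retnlg, a secreted protein of neutrophils. Inhbb was at 1.20, 1.98 and 2.02 FPKM in BDL and 2.69, 5.58 and 3.28 in BDL_HDCA (log2 change 0.80 ± 0.20). BDL_HDCA replicate 2 was far above the others there, as it was for Vipr1, at 1.75, 1.52 and 2.65 FPKM in BDL and 3.29, 6.88 and 3.66 in BDL_HDCA. Hdc barely separated, with 1.45 FPKM in the highest BDL library and 1.62 in the lowest BDL_HDCA library. The 12 log2 changes ran from 0.68 to 1.21, and from 0.40 to 1.12 without the 2 libraries that stood apart.

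On the lower side stood a hormone pair of the liver, Fgf21 and Igf1, with enzymes, a chemokine and regulators. Prtn3, a serine protease of myeloid granules, was at 10.6, 13.3 and 13.8 FPKM in BDL and 6.30, 7.42 and 8.92 in BDL_HDCA (log2 change -0.67 ± 0.16). Igf1, the growth factor that the liver secretes under growth hormone (chromosome 10, 87858265 to 87937042), was at 68.2, 56.0 and 54.9 FPKM in BDL and 48.0, 42.0 and 46.7 in BDL_HDCA (-0.38 ± 0.13; -0.22 without the libraries that stood apart). Ccl24, a chemokine for eosinophils, was at 3.18, 5.24 and 5.35 FPKM and then at 3.08, 0.914 and 2.22 (-0.91 ± 0.26). The groups met closely for Ccl24, where BDL replicate 1 was just above BDL_HDCA replicate 1. Id1, a target of BMP signalling, was at 22.3, 16.5 and 19.6 FPKM in BDL and 9.12, 11.8 and 13.8 in BDL_HDCA (-0.71 ± 0.22). Tob1, a brake on proliferation, was at 68.6, 52.5 and 63.1 FPKM and then at 42.5, 22.6 and 46.6, with BDL_HDCA replicate 2 well below the rest (-0.76 ± 0.25; -0.36 without the libraries that stood apart). Cda, which deaminates cytidine, was at 7.32, 8.74 and 8.47 FPKM in BDL and 5.64, 6.06 and 5.73 in BDL_HDCA. The sorting nexin Snx21, Heca, Zfp954 and Ccdc28a were between 2.56 and 7.53 FPKM in BDL and between 1.40 and 5.91 in BDL_HDCA.

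**Figure D2:**
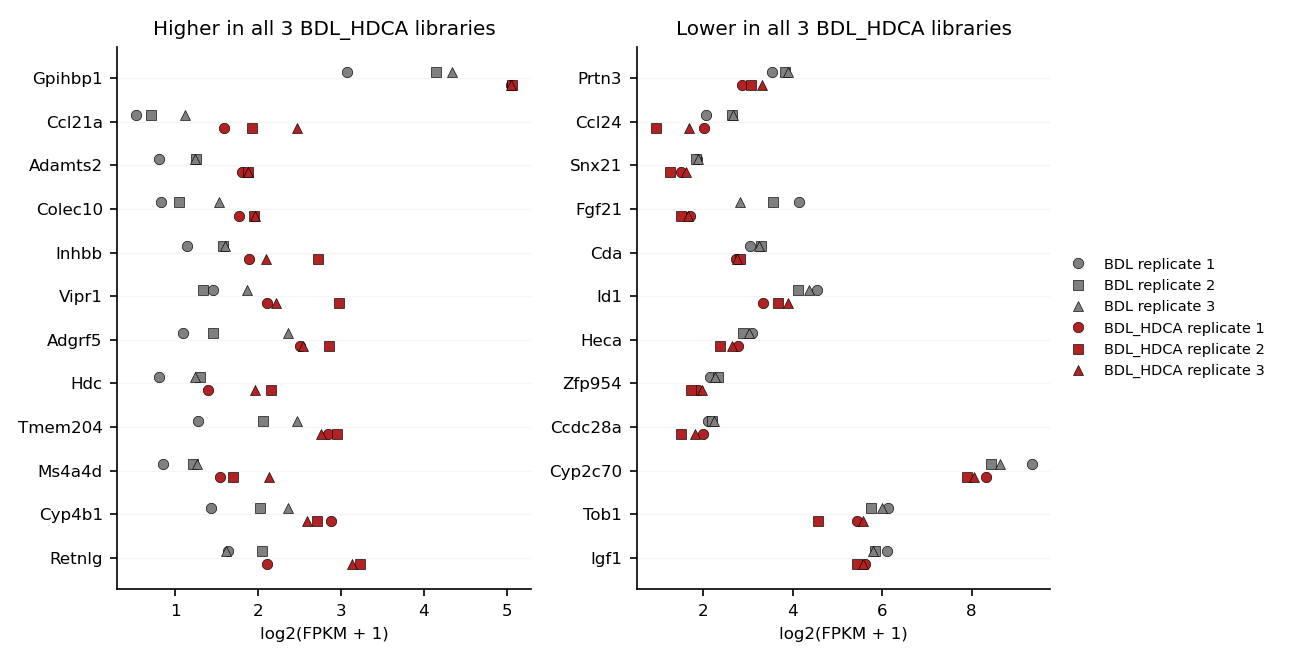
Points give log2(FPKM + 1) in each library (x axis) for the 12 genes with the smallest p on the higher side (left) and the 12 on the lower side (right); grey is BDL, red BDL_HDCA, and the symbol gives the replicate. The red points of Gpihbp1 coincide at 32.1 to 32.5 FPKM while the grey ones run from 7.39 to 19.3, and for Fgf21 the red points lie at 1.85 to 2.25 FPKM below all grey ones.

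Of the 47 gene lists with tested members, 15 kept the sign of their median when any 1 library, or both that stood apart, was left out: 14 had a median above 0 and 1, the integrated stress response, a median below 0. The 14 were the endothelial, lymphatic, stellate, myofibroblast, matrix, matrix processing, TGF-beta and BMP, Wnt, neutrophil, erythroid, pericentral, glucose, ribosomal and oxidative phosphorylation lists. Scaling and weights did not enter this count: the neutrophil median was -0.04 with library weights. That of oxidative phosphorylation was -0.01 with median-of-ratios scaling and 0.04 in the main fit, near the 0.03 of all genes. For the other 32, and for the median of all genes, which ran from -0.06 without BDL replicate 1 to 0.12 without BDL_HDCA replicate 2, the direction rested on which libraries were used.

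Endothelial markers had the highest median of these lists. All 38 tested genes of its 40 had a higher mean with HDCA, against 58.8% of all genes tested, and 7 did not overlap between groups, against 3.43%. None passed the test. The median log2 change was 0.64, against 0.03 over all genes. Stab1, a scavenger receptor of sinusoidal endothelium, was at 2.28, 4.31 and 7.58 FPKM in BDL and 8.66, 8.21 and 9.71 in BDL_HDCA (log2 change 0.89 ± 0.29). Nos3, the nitric oxide synthase of endothelium, was at 0.528, 1.03 and 1.51 FPKM and then at 1.64, 2.04 and 2.04 (0.55 ± 0.17). Lyve1, a hyaluronan receptor, overlapped between groups, at 2.45, 2.43 and 4.79 FPKM in BDL and 4.56, 11.1 and 7.11 in BDL_HDCA. For Stab1 and Nos3 BDL replicate 1 was the lowest library, and the treated libraries were closer together than the untreated ones.

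Summed over the endothelial list, the untreated libraries held 108, 301 and 437 FPKM and the treated ones 461, 395 and 447. BDL replicate 1 was far below every other library, and BDL replicate 3 lay among the treated ones, so the sums of the groups overlapped. The median log2 change was 0.29 without BDL replicate 1 and 1.00 without BDL replicate 3. Without both libraries that stood apart it was 0.30, with 37 of 38 genes higher against 61.7% of all genes. Erythroid genes, which mark blood in the sample, stood in the same order within each group: they summed to 108, 212 and 274 FPKM without HDCA and to 342, 187 and 279 with it, with 9 of 9 tested members of 14 at a higher mean. Their part in the endothelial difference was not tested. The hepatocyte markers summed to 50890, 49880 and 47850 FPKM in BDL and 55930, 53980 and 44550 in BDL_HDCA.

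Genes of lymphatic endothelium and stromal chemokines had a higher mean in 11 of 11, against 58.8% of all genes. Of these, 3 did not overlap, against 3.43% of all genes. Their median was 0.45, or 0.35 without the libraries that stood apart. Reln, a secreted glycoprotein of lymphatic and stellate cells, was at 0.693, 2.38 and 3.50 FPKM in BDL and 4.34, 3.73 and 4.46 in BDL_HDCA. Flt4, the receptor for the lymphatic growth factor VEGF-C, was at 1.24, 3.79 and 7.52 FPKM and then at 7.09, 7.02 and 7.64, so that BDL replicate 3 lay among the treated libraries. Fabp4, a fatty acid carrier of capillary endothelium, was at 4.32, 8.82 and 15.3 FPKM in BDL and 12.7, 20.1 and 20.3 in BDL_HDCA (log2 change 0.95 ± 0.34). Of the 17 tested genes of plasma triglyceride breakdown and capillary lipid transport, Gpihbp1 and Fabp4 aside, Apoc2, the activator of lipoprotein lipase, was at 2.51, 2.70 and 3.04 FPKM and then at 3.35, 3.39 and 3.95. The list as a whole had 7 higher and 10 lower, with a median of -0.11.

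Stromal genes stood higher with HDCA as well. Quiescent stellate cell genes had a higher mean in 18 of 19 tested, against 58.8% of all genes, and 5 did not overlap, against 3.43%. Their median was 0.42 (0.21 without the libraries that stood apart and 0.15 without BDL replicate 1). Myofibroblast and contractile genes were higher in 16 of 16, 5 without overlap, against the same shares of all genes. Their median was 0.33 (0.31 without the libraries that stood apart, with 14 of 16 higher, against 61.7% of all genes). Adamtsl2, a matrix protein of stellate cells, was at 1.20, 1.66 and 2.80 FPKM in BDL and 3.96, 4.24 and 3.21 in BDL_HDCA. Mfap4, a microfibril protein, was at 1.25, 2.05 and 2.12 FPKM and then at 3.90, 3.57 and 3.50 (log2 change 0.74 ± 0.24). Acta2, the actin of myofibroblasts and smooth muscle, was at 0.711, 3.47 and 4.55 FPKM in BDL and 7.39, 3.49 and 13.6 in BDL_HDCA (1.23 ± 0.45; 1.15 without the libraries that stood apart). The groups overlapped for Acta2 because BDL_HDCA replicate 2 was as low as the untreated libraries, and BDL_HDCA replicate 3 was the highest.

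Collagens and other matrix proteins had a higher mean in 30 of 32 tested, against 58.8% of all genes. On the higher side 9 did not overlap, against 3.43%, and on the lower side 1, against 1.59%. Their median was 0.50, and 0.41 without the libraries that stood apart. Col3a1, the main collagen of reticular fibres, was at 6.71, 19.1 and 24.5 FPKM in BDL and 34.6, 17.4 and 50.7 in BDL_HDCA (log2 change 1.03 ± 0.49). Dpt, which helps collagen fibrils form, was at 1.77, 2.96 and 3.83 FPKM and then at 5.41, 4.94 and 7.53, with no overlap (0.87 ± 0.32). Col14a1, a collagen that sits on fibrils, was at 0.883, 3.53 and 4.37 FPKM and then at 5.07, 4.90 and 6.89 (0.87 ± 0.34). Fn1 (fibronectin), which hepatocytes also secrete into plasma, went the other way, at 278, 282 and 270 FPKM in BDL and 240, 240 and 204 in BDL_HDCA (-0.28 ± 0.12; -0.31 without the libraries that stood apart). Genes that process matrix were less one-sided, with 18 of 25 higher and a median of 0.17, which was 0.07 without BDL_HDCA replicate 3 and 0.38 without BDL_HDCA replicate 2. Timp1, an inhibitor of matrix proteases, was at 5.87, 6.39 and 5.85 FPKM in BDL and 5.63, 3.93 and 11.4 in BDL_HDCA, so that BDL_HDCA replicate 3 was highest and replicate 2 lowest of all. For the summed matrix list, at 597, 691 and 744 FPKM in BDL and 748, 684 and 856 in BDL_HDCA, the groups overlapped, and the median was 0.31 without BDL_HDCA replicate 3 and 0.70 without BDL_HDCA replicate 2.

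**Figure D3:**
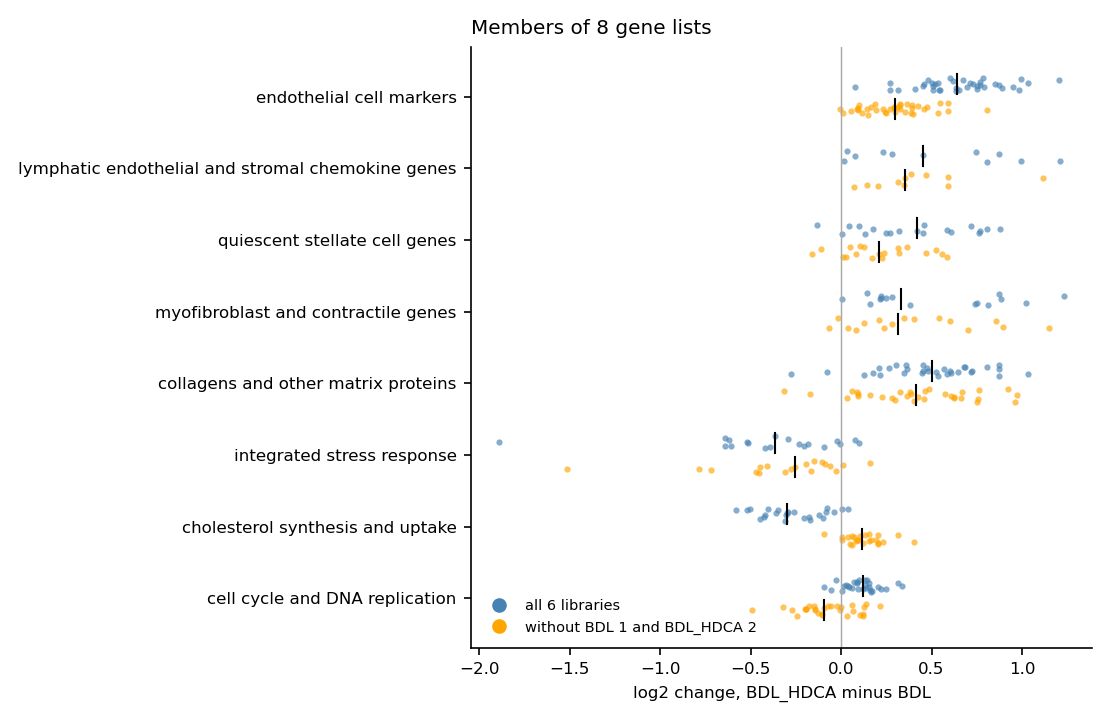
Each dot is the log2 change, BDL_HDCA minus BDL (x axis), of 1 tested gene in 8 lists (y axis), from all 6 libraries (blue) or without BDL replicate 1 and BDL_HDCA replicate 2 (orange); black bars are medians. The endothelial, lymphatic, stellate, myofibroblast and matrix medians are above 0 and the stress response median below 0 in both versions, while the cholesterol median goes from -0.30 to 0.11 and the cell cycle median from 0.12 to -0.09.

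In the TGF-beta and BMP list, 20 of 28 tested had a higher mean, against 58.8% of all genes. On the higher side 4 did not overlap, against 3.43% of all genes, and on the lower side 2, against 1.59%. The median was 0.22. Leaving out BDL replicate 1 made it 0.06, leaving out BDL_HDCA replicate 3 made it 0.11, and leaving out BDL_HDCA replicate 2 made it 0.35. Among ligands, Inhbb is described above, and Tgfb1, the main activator of stellate cells, was at 4.12, 14.2 and 13.9 FPKM in BDL and 14.6, 7.92 and 20.1 in BDL_HDCA, with wide overlap. The co-receptor Tgfbr3 was at 0.641, 0.857 and 1.31 FPKM and then at 1.73, 2.01 and 2.01, with no overlap (log2 change 0.60 ± 0.16). Among feedback and target genes Id1, Id2, Id3, Skil and Smad7 had lower means, while Ccn2 (CTGF), a matrix-linked target picked out after its values were seen, was at 2.53, 5.51 and 5.22 FPKM in BDL and 6.00, 9.21 and 6.44 in BDL_HDCA. Smad7, the inhibitory SMAD, was at 4.62, 2.11 and 2.70 FPKM in BDL and 1.08, 1.82 and 2.25 in BDL_HDCA (-0.59 ± 0.24), and Id1 is given above. Among secreted Wnt modulators, 9 of 12 were higher, with a median of 0.14, which was 0.08 without BDL replicate 1 and 0.27 without BDL replicate 3. Sfrp1, which binds Wnt ligands, was at 0.432, 0.545 and 0.667 FPKM and then at 1.28, 1.46 and 1.10.

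Of the bile duct markers, 17 of 23 tested had a higher mean, against 58.8% of all genes, and 0 were without overlap, against 5.03%. The median was 0.07. This became 0.30 when BDL_HDCA replicate 2 was left out, 0.24 for BDL replicate 3 and 0.01 for BDL replicate 1. Krt19, the keratin of bile ducts, was at 6.45, 5.64 and 4.50 FPKM in BDL and 5.40, 5.17 and 8.93 in BDL_HDCA. Sox9, a transcription factor of ductular cells, was at 3.31, 5.08 and 4.66 FPKM and then at 3.44, 5.40 and 4.06. The differences for both genes were smaller than the spread between libraries of a group. Summed, the list held 553, 2087 and 2328 FPKM in BDL and 1728, 721 and 1986 in BDL_HDCA, lowest in both libraries that stood apart.

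Genes of the integrated stress response had lower means with HDCA. In this pathway, kinases that sense lack of amino acids, misfolded protein or other stress raise the translation of ATF4, which then switches on genes for amino acid supply, together with Ddit3 (CHOP), Trib3 and the hormone Fgf21. Of 19 members tested of 23, 17 had a lower mean, 2 of them without overlap against 1.59% of all genes, and the median log2 change was -0.36. The median was -0.25 without the libraries that stood apart, with 2 of 19 again higher. None passed the test. The list summed to 772, 630 and 488 FPKM without HDCA and to 480, 481 and 454 with it, so that all 3 treated libraries lay below the lowest untreated library, which was close to them.

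Fgf21 is shown with its promoter because its log2 change was the most negative among the 24 genes named by p. The RefSeq promoter windows (build GRCm38.p6) hold 250 bases before and 50 after the start of transcription, and the amino acid response element, to which ATF4 binds, was searched in them as TGATGNAA on both strands. It was found in 1304 of 32851 windows (3.97%), and in the windows of 7 of the 22 listed stress response genes that have one: Fgf21, Trib3, Asns, Chac1, Slc7a11, Nupr1 and Vldlr. Counted by gene over all genes with a window, 4.51% hold it. The bases before the start of transcription are printed for Fgf21 and, around the match, for the members tested whose match lies there, 5′ to 3′ along the gene, with the match in capitals. A match is a description of the letters and not a site shown to be bound.
Fgf21, minus strand, chr7:45615491-45615740: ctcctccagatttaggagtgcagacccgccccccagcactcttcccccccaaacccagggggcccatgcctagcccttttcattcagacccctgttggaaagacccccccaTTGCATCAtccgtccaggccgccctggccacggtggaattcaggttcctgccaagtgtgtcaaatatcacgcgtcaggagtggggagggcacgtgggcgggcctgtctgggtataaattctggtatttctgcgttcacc
Chac1, plus strand, chr2:119351023-119351082: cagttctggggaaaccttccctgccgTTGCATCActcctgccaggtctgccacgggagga
Nupr1, minus strand, chr7:126625547-126625606: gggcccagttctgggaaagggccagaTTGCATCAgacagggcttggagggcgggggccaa
Asns, minus strand, chr6:7693210-7693269: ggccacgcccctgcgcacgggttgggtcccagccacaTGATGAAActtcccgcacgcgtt
In Fgf21, Chac1 and Nupr1 the match is the reverse strand of the motif, and it begins 139, 193 and 110 bases before the start of transcription. In Asns it is on the forward strand and begins 23 bases before.

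Fgf21, a fasting and stress hormone of the liver, was at 16.7, 10.7 and 6.13 FPKM in BDL and at 2.25, 1.85 and 2.14 in BDL_HDCA. All 3 treated libraries were below all 3 untreated ones, and the untreated ones spread widely (11.2 ± 5.30 FPKM against 2.08 ± 0.207, SD, n = 3). The log2 change was -1.89 ± 0.56 (limma adjusted p = 0.9997), and -1.52 without the libraries that stood apart. Atf4 itself was at 87.3, 114 and 87.2 FPKM in BDL and 77.5, 59.0 and 83.2 in BDL_HDCA (-0.39 ± 0.16), again with no overlap. Its level is set mainly by translation, which these libraries do not measure.

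The other members overlapped between groups. Ddit3, a factor that promotes cell death under lasting stress, was at 2.16, 5.50 and 4.31 FPKM in BDL and 3.09, 1.26 and 2.11 in BDL_HDCA (log2 change -0.64 ± 0.26; -0.72 without the libraries that stood apart). Trib3, a pseudokinase that feeds back on ATF4, was at 5.05, 5.72 and 3.98 FPKM and then at 3.56, 1.50 and 3.99, so that BDL_HDCA replicate 3 lay just above the lowest untreated library (-0.61 ± 0.23; -0.28 without those libraries). The genes whose promoters are printed beside that of Fgf21 did not separate the groups. Asns, asparagine synthetase, was at 5.04, 9.04 and 4.62 FPKM in BDL and 5.05, 6.51 and 2.13 in BDL_HDCA. Chac1, which degrades glutathione, was at 4.99, 12.9 and 4.21 FPKM and then at 5.54, 5.94 and 5.27. Nupr1, a stress-induced chromatin protein, was at 8.84, 7.22 and 3.70 FPKM and then at 2.75, 2.88 and 6.23.

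**Figure D4:**
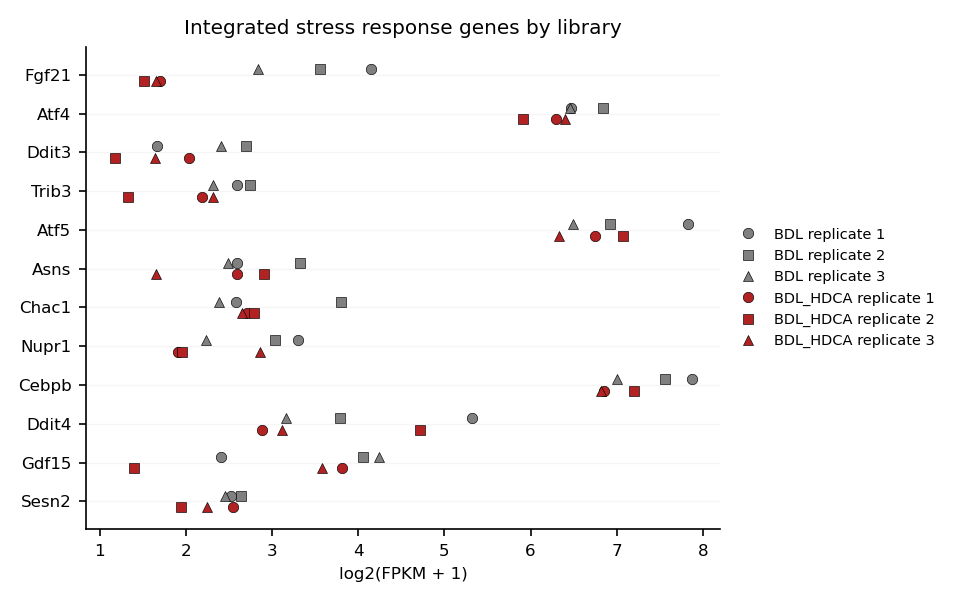
Points give log2(FPKM + 1) in each library (x axis) for 12 integrated stress response genes; grey is BDL, red BDL_HDCA, and the symbol gives the replicate. Fgf21 and Atf4 separate by group, with Fgf21 at 6.13 to 16.7 FPKM in grey and 1.85 to 2.25 in red, and the other genes overlap.

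Chaperones of the endoplasmic reticulum, a neighbouring stress pathway, had a higher mean in 19 of 21 with a median of 0.15, but 10 of 21 and a median of 0.00 without the libraries that stood apart. Genes induced by p53 or in apoptosis and senescence were split 10 to 10. Trp53inp1 in that list was at 28.1, 15.4 and 18.3 FPKM in BDL and 15.6, 10.2 and 13.1 in BDL_HDCA. The antiproliferative Btg2 was at 20.3, 27.9 and 27.6 FPKM and then at 20.2, 11.9 and 22.1. Both overlapped, and BDL_HDCA replicate 2 was the lowest library for each.

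Of the 14 genes of bile acid synthesis and conjugation, 9 had a higher and 5 a lower mean, with a median of 0.08. Cyp2c70, the enzyme that makes muricholic acids in mice (chromosome 19, 40153353 to 40187333), did not overlap, at 648, 346 and 397 FPKM in BDL and 320, 237 and 264 in BDL_HDCA. Its log2 change was -0.72 ± 0.24, and -0.35 without the libraries that stood apart. Cyp7a1, whose activity limits how fast cholesterol turns into bile acids, was at 72.8, 8.87 and 14.8 FPKM in BDL and 35.9, 23.8 and 26.2 in BDL_HDCA. All 3 treated libraries were above BDL replicates 2 and 3 and below BDL replicate 1, so the log2 change was 0.37 ± 0.57 with all libraries and 1.35 without those that stood apart. Cyp8b1, which adds the hydroxyl group of cholic acid, was at 201, 75.7 and 46.1 FPKM and then at 128, 245 and 73.8, with both libraries that stood apart highest.

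Of the 10 tested bile acid receptor and FXR feedback genes, 4 had a higher mean, against 58.8% of all genes, and the median was -0.04. Of these genes 0 were without overlap, against 5.03% of all genes. With 10 genes, a count of 0 is near that share. Nr0b2 (SHP), the repressor that FXR induces, was at 31.8, 33.1 and 52.1 FPKM in BDL and 33.9, 7.92 and 34.1 in BDL_HDCA, low only in BDL_HDCA replicate 2. The FXR gene Nr1h4 was at 52.0, 26.0 and 28.8 FPKM and then at 33.7, 58.4 and 31.2, high in both libraries that stood apart. The inverted repeat that FXR binds, searched on both strands, was in 0.00913% of all promoter windows and in none of the 12 windows of this list.

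Transporters of bile acids had a higher mean in 5 of 15 and a median of -0.08, but 11 of 15 and 0.20 without the libraries that stood apart. Slc10a1 (NTCP), the main uptake carrier, was at 334, 105 and 108 FPKM in BDL and 156, 204 and 156 in BDL_HDCA. As for Cyp7a1, the treated libraries were above BDL replicates 2 and 3 and below BDL replicate 1, and the log2 change was 0.13 ± 0.35, or 0.54 without the libraries that stood apart. Abcb11 (BSEP), the pump for bile acids into bile, was at 90.2, 163 and 190 FPKM and then at 202, 57.2 and 203, low in both of those libraries. Slc51b, a chain of the basolateral exporter, was at 6.22, 12.9 and 20.7 FPKM and then at 16.2, 6.62 and 23.3.

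Among 23 tested genes of drug metabolism, 13 had a higher mean and the median was 0.02. Cyp1a2, a pericentral P450, was at 52.2, 154 and 147 FPKM in BDL and 257, 136 and 234 in BDL_HDCA (log2 change 0.92 ± 0.36; 0.70 without the libraries that stood apart). BDL_HDCA replicate 2 kept its groups from separating. Cyp3a11, the main PXR target, was at 1249, 3906 and 4555 FPKM in BDL and 5217, 4940 and 5377 in BDL_HDCA, with no overlap (0.88 ± 0.39, and 0.33 without those libraries); it has close relatives that may share reads. Glul, glutamine synthetase of the cells around the central vein, was at 294, 273 and 215 FPKM and then at 348, 380 and 292, so that BDL replicate 1 lay just above the lowest treated library (0.38 ± 0.14, and 0.39 without those libraries). The pericentral list had 11 of 16 higher with a median of 0.17 and the periportal list 5 of 16 with a median of -0.09, which became 0.15 and 0.02 without them.

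Among lipid genes, cholesterol synthesis and uptake had a lower mean in 22 of 24 with a median of -0.30, but a higher mean in 23 of 24 with a median of 0.11 without those libraries. The sterol response element, searched as TCACNCCAC on both strands, was in 1.24% of all windows and in 1 of the 16 windows of this list, that of Hmgcs1. Fatty acid synthesis had 13 of 22 higher and PPAR alpha targets 20 of 27, with medians of 0.06 and 0.10, or 0.05 and 0.10 without the libraries that stood apart; the first was -0.23 without BDL replicate 1 and 0.28 without BDL_HDCA replicate 2, the second 0.25 and -0.05. Growth hormone targets were split, with 11 of 17 higher and a median of 0.15, which was -0.16 without BDL replicate 1, 0.31 when BDL_HDCA replicate 2 was left out and 0.04 without both. Igfbp3, a carrier of IGF1, was at 1.56, 1.25 and 1.65 FPKM in BDL and 1.91, 5.64 and 2.19 in BDL_HDCA, opposite in direction to Igf1. Pck1, the gluconeogenic enzyme, was at 1567, 571 and 631 FPKM and then at 513, 373 and 564, just without overlap.

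Among immune cells, Kupffer cell markers were higher in 12 of 20, with a median of 0.11, and monocyte and macrophage markers in 12 of 22, with a median of 0.02. Both medians were -0.20 without BDL replicate 1, and they were 0.32 and 0.45 without BDL_HDCA replicate 2. Clec4f, a defining receptor of Kupffer cells, was at 21.1, 47.5 and 48.2 FPKM in BDL and 46.5, 23.6 and 38.2 in BDL_HDCA, low in both libraries that stood apart. Neutrophil markers were higher in 10 of 11 tested of 24, with a median of 0.34. Retnlg was at 2.10, 3.12 and 2.06 FPKM and then at 3.30, 8.37 and 7.76 (log2 change 1.06 ± 0.32). The lower member was Prtn3, given above, while the granule genes Mpo, Elane and Ctsg were at or under 0.305 FPKM in all 6 libraries and Ly6g was at 0 in 5 of 6. The median of the list was 0.72 without BDL_HDCA replicate 1, 0.18 without both libraries that stood apart and -0.04 with library weights.

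Of the 18 tested genes of inflammatory cytokines, sensors and adhesion, 0 were without overlap, against 5.03% of all genes. With 18 genes, a count of 0 is near that share. Il1b was at 2.11, 3.26 and 2.82 FPKM in BDL and 2.52, 4.16 and 6.03 in BDL_HDCA, and Tnf at 0.262, 0.513 and 0.646 and then at 0.529, 0.227 and 1.28. Saa1, an acute phase protein, spanned a wide range, at 2292, 964 and 1146 FPKM in BDL and 363, 4833 and 2809 in BDL_HDCA. Ceruloplasmin (Cp), another acute phase protein, did not overlap, at 619, 589 and 634 FPKM and then at 420, 398 and 579 (log2 change -0.42 ± 0.16). The acute phase list was split, with 13 of 30 higher and a median of -0.02. Interferon-stimulated genes were higher in 22 of 26 with a median of 0.14, and chemokines in 20 of 27 with a median of 0.18; without BDL replicate 1 these medians were -0.14 and 0.01, and without BDL_HDCA replicate 2 they were 0.46 and 0.40. Cell cycle genes were higher in 26 of 29 with a median of 0.12, but in 9 of 29 with a median of -0.09 without the libraries that stood apart. Mki67, the proliferation marker, was at 0.0734, 1.78 and 2.76 FPKM in BDL and 2.67, 0.790 and 2.44 in BDL_HDCA.

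The effect of HDCA was last set against that in the MDR libraries, at the same dose but over 21 days instead of 4, so that model and duration cannot be told apart. No gene's effect differed between the models after adjustment: limma called 0 of 10805 (0%), with 200 at an unadjusted p under 0.05 (1.85%) and a smallest adjusted p of 0.9999. Igf1 was at 62.8, 50.4 and 49.6 FPKM in the MDR libraries and 74.7, 74.6 and 79.3 in MDR_H, where all 3 treated libraries were higher, the opposite order to the ligated livers. Its log2 change was 0.49 ± 0.13 there and the difference between the models -0.87 ± 0.18 (limma adjusted p = 0.9999). Gpihbp1 was at 30.2, 30.3 and 33.2 FPKM in MDR and 33.6, 32.6 and 34.5 in MDR_H, near the level of the ligated livers with HDCA. Fgf21 was at 0.447, 0.762 and 3.88 FPKM in MDR and 0.493, 2.04 and 5.92 in MDR_H, with wide overlap. Of the 12 genes named on the higher side, 7 were also higher in MDR_H, with log2 changes of -0.21 to 0.17; of the 12 on the lower side, 1 was also lower, with log2 changes of -0.09 to 0.49. The genes were chosen for their values in the ligated livers, so the smaller values in the other model are a description only.

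**Figure D5:**
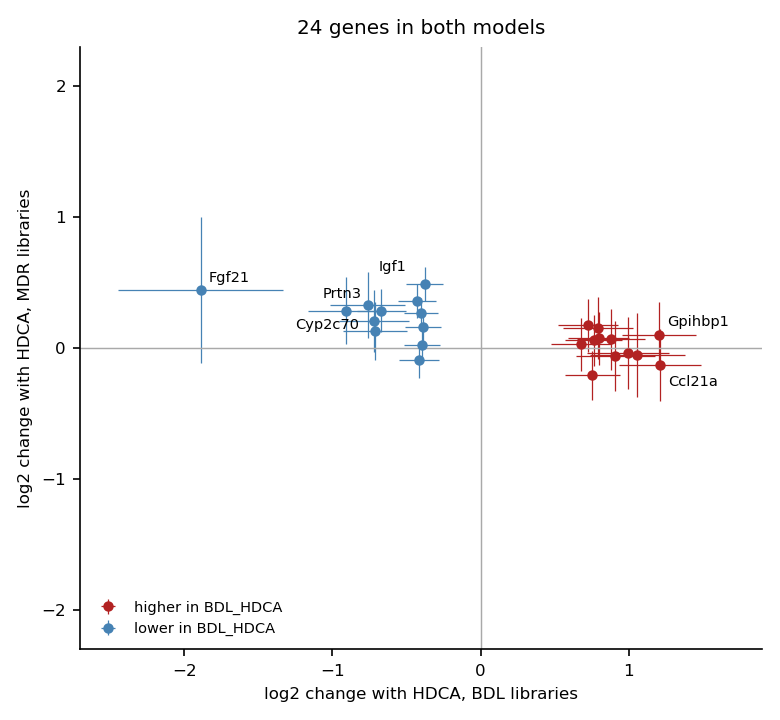
The log2 change with HDCA in the ligated livers (x axis) is plotted against that in the MDR libraries (y axis) for the 24 named genes; points are limma estimates and bars 1 standard error, red for genes higher and blue for genes lower in BDL_HDCA. The x values run from -1.89 to 1.21 and were used to choose the genes, while the y values stay between -0.21 and 0.49.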

How the data were processed

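Total liver RNA was extracted with TRIzol and made into polyA libraries (per the labels' protocols). Build GRCm38 and the tools HISAT2 2.0.5, featureCounts 1.5.0-p3, fastp, CASAVA 1.8 and DESeq2 1.20.0 come from the submitters' processing notes; annotation release and strand setting: not given in the sources used here. The authors deposited 1 table of FPKM values. In 99.99% of 16970 genes the values came out as whole reads within 0.02 of a read; 2153 genes had under 10 reads in every library. Groups were read from the titles. In R 4.3.3, limma 3.58.1 with trend was run on log2(FPKM + 1), a scale that understates changes of low genes, over 4 group means and 12 libraries, two-sided, with Benjamini-Hochberg adjustment over 10805 genes. The script was tested on simulated data.

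The comparison, the 48 gene lists and the rules were chosen with earlier results of these data known. Named genes are the 12 with the smallest p in each direction that do not overlap, up to 4 members of a list with the smallest p, fixed key genes, and 6 genes a side that set 2 libraries apart; Asns, Chac1 and Nupr1 are shown for their promoters and Ccn2 after its values were seen. Not every gene that these rules name is reported. Deviations of same-numbered BDL and BDL_HDCA libraries correlated at -0.430 to 0.431, so numbers were not taken as pairs. Alternatives were another pseudocount, filters, scalings, library weights, limma-voom on recovered reads, a replicate block and leaving libraries out. Coordinates are from GENCODE M21.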

Additional observations from a re-analysis of the deposited data

How the results depend on the processing

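The count of genes called was 0 under every alternative except library weights, where it was 1, Gpihbp1. The 243 genes at an unadjusted p under 0.05 became 392 with no filter on low values, 111 at a mean FPKM of at least 5, 127 with only the 6 BDL-model libraries, 393 with median-of-ratios scaling and 1533 with library weights; leaving out 1 library gave 218 to 420, the highest without BDL replicate 3, and 217 without both libraries that stood apart. With the replicate number as a block, 0 genes were called and 291 had an unadjusted p under 0.05; the numbers were not taken to pair the samples. Of 65 genes with a log2 change followed, 63 kept 1 direction under those of the 16 alternatives that fitted them. Genes with a mean FPKM under 5 were absent from the fit with that filter, and Fn1 from the limma-voom fit. For genes whose groups did not overlap, the 24 named by p among them, leaving libraries out could not reverse the direction. For these the count was partly fixed in advance. Cyp7a1 went to -0.22 without BDL replicate 2, its lowest value, to 1.35 without both libraries that stood apart and to 1.58 with library weights, its highest. Slc10a1 went to -0.16 without BDL replicate 2, -0.14 without BDL replicate 3 and -0.0017 without BDL_HDCA replicate 2, and to 0.67 without BDL replicate 1. The cause was not tested. The medians of 34 of 46 lists moved by less than 1 SD of the groups under every alternative. That SD is the spread of a list's own library medians within groups, and the libraries that stood apart can widen it. Lists among the 34 still changed sign without those libraries: cholesterol synthesis went from -0.30 to 0.11 and the cell cycle from 0.12 to -0.09. With 3 libraries a group, of which 1 stands apart, the absence of calls does not show that HDCA left expression as it was. Members of a list share cells and libraries, so their counts are not independent evidence.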

Other observations

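Genes of basic cell machinery differed little. Cytosolic ribosomal proteins had a higher mean with HDCA in 26 of 28, against 58.8% of all genes, 5 of them without overlap, against 3.43%, with a median log2 change of 0.09, and in 27 of 28, against 61.7%, with a median of 0.14 without the libraries that stood apart. Rplp1, an acidic stalk protein of the large subunit, was at 589, 667 and 690 FPKM in BDL and 808, 711 and 858 in BDL_HDCA. Rpl8 was at 282, 283 and 281 FPKM in BDL, closely grouped, and at 321, 303 and 337 in BDL_HDCA. Genes of oxidative phosphorylation were higher in 22 of 29 with a median of 0.04, against 0.03 over all genes. Among them Cyc1, cytochrome c1, was at 86.2, 85.5 and 87.2 FPKM in BDL and 99.6, 95.5 and 92.3 in BDL_HDCA. Proteasome subunits were split, with 11 of 27 higher and a median of -0.02. In all of these no gene passed the test, and the ribosomal median was 0.01 without BDL_HDCA replicate 3.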
